A study of Homo sapiens with 12 samples.

Results

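Translation initiation factors are the proteins that bring a ribosome to the start codon of an mRNA. Their genes were taken by symbol, as every entry beginning with EIF and a number from 1 to 6 except EIF2AK2, without 72 symbols that name pseudogene copies and without genes listed at 0 in every library. This gave 55 genes of the 58684 entries in the table. All 55 passed the filter on low values, which kept the 22528 genes that reached a log2 value of 1 in 4 or more of the 12 libraries. EIF4E1B, with low values, passed through 6 libraries, 3 of them with avadomide, and the other 3 alone would not have met the filter. EIF1AY, which lies on the Y chromosome, was tested and did not pass in any comparison, and its levels are not given here.

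RNA was sequenced from 4 established lines of diffuse large B-cell lymphoma, a cancer of mature B cells. U2932, SUDHL-4, TMD8 and WSU-DLCL2 were grown in serum-containing RPMI medium and exposed for 18 hours to lenalidomide, to avadomide (CC-122) or to DMSO, the solvent control, with 1 library per line and treatment, so that each treatment has 4. Both compounds are drugs that bind cereblon, a substrate receptor of a ubiquitin ligase, and lead to loss of the lymphoid transcription factors Ikaros and Aiolos. Both hold a glutarimide ring, joined to an amino-isoindolinone in lenalidomide and to an amino-methylquinazolinone in avadomide. The labels state no dose, so doses are not known to match, and nothing says whether libraries were made together. No line has a replicate of its own. P-values weigh the mean change over 4 lines against a residual spread per gene, estimated over all 12 libraries and moderated by limma. A change can thus pass without being even over the lines.

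In initiation, eIF4F binds the cap at the end of the mRNA through eIF4E, holds the message on the scaffold eIF4G and unwinds it with the helicase eIF4A, while eIF3 bridges it to the small ribosomal subunit. eIF2 carries the initiator tRNA and is recharged by the exchange factor eIF2B, and stress kinases block that step by phosphorylating the alpha subunit of eIF2. The 4E-binding proteins, which the kinase mTOR switches off, keep eIF4E from eIF4G. In lymphoma the pathway is known for its link to MYC, whose E-box motif, CACGTG, occurs in promoters of several of these genes.

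The promoter sequences are shown because that motif, of 5 searched, had the highest share among these genes relative to its share in all promoters. In the RefSeq promoter table (GRCh38.p14) 46 of the 55 genes had an entry, and CACGTG, a palindrome that reads the same on both strands, was present in the 250 bases before the start of 11 of them, or 23.9%. The same letters were in 6.49% of all 27305 promoters of the table and in 8.77% of the 11215 that belong to tested genes. The 11 were EIF4B, EIF2B3, EIF4H, EIF1B, EIF4G1, EIF4A3, EIF4E, EIF5A2, EIF3F, EIF3K and EIF4EBP3. The motif was read in letters only, and binding of any factor was not measured. Below, capitals mark CACGTG in the 250 bases upstream of the RefSeq start, written 5′ to 3′ on the strand of the gene, for 4 genes that passed the test under avadomide and for EIF4E, which did not.
EIF4A3 (chr17:80147129-80147378, minus strand): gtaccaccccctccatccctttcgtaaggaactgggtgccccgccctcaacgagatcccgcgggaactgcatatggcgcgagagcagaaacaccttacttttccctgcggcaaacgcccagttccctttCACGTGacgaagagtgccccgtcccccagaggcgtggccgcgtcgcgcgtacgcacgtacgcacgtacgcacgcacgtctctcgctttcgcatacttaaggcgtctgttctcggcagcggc
EIF4G1 (chr3:184314356-184314605, plus strand): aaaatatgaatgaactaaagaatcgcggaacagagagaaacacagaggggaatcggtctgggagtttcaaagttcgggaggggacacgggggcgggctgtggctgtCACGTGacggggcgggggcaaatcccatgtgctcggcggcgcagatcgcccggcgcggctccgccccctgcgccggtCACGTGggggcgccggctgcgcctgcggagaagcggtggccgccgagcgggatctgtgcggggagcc
EIF3K (chr19:38618938-38619187, plus strand): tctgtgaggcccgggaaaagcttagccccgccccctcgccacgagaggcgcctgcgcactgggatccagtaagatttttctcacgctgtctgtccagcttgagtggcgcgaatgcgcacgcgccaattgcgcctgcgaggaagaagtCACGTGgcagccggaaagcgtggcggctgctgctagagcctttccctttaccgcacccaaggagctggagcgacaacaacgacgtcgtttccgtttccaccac
EIF2B3 (chr1:44986596-44986845, minus strand): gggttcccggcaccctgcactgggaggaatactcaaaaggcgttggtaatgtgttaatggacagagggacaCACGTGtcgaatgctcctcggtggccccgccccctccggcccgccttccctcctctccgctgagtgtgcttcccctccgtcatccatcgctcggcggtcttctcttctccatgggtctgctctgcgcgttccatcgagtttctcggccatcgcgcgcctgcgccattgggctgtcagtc
EIF4E (chr4:98929134-98929383, minus strand): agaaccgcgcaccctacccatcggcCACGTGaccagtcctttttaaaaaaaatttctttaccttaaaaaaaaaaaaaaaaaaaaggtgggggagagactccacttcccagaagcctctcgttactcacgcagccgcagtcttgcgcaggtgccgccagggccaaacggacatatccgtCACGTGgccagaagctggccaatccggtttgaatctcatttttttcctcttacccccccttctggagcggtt
EIF4G1 and EIF4E each held 2 copies, which began 144 and 67 bases before the start in EIF4G1 and 225 and 72 bases before it in EIF4E. In EIF4A3 the single copy began 121 bases before the start, in EIF3K 103 and in EIF2B3 179.

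Most of these genes were abundant in all lines. With DMSO, 45 of the 54 genes whose levels are listed had a mean log2 value of at least 11. Scaled by the length of the longest GENCODE 29 transcript, 40 of them lay above the 75th percentile of the 17591 genes with a length. EIF5A, whose protein helps ribosomes past difficult peptide bonds, had the highest level per length, at a log2 value of 15.27 per kb. EIF3E, an eIF3 subunit, followed at 15.06 and EIF3K at 14.31. Of the paralogous eIF4A helicases, EIF4A2 stood at 13.70 per kb and EIF4A1 at 9.12. EIF4A1 shares 48.59% of its exon bases with other annotated genes, among them the readthrough gene SENP3-EIF4A1, so its reads could have been split, and its level is uncertain for that reason. The genes of the 5 eIF2B subunits had mean log2 values from 11.96 for EIF2B2 to 13.68 for EIF2B5, and per kb from 9.85 to 11.92.

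Lines differed from each other more than treatments did within a line. The range of a gene's DMSO value across lines had a median of 0.59 on the log2 scale, against 0.25 for the largest range among the 3 libraries of a line, and the first was above the second for 49 of 54 genes. In 8 genes the lines differed by more than 1. EIF4E3, a cap-binding relative of eIF4E, was present in U2932 at 7.57 and in TMD8 at 8.30 and close to the low end in SUDHL-4 at 2.16 and in WSU-DLCL2 at 1.63. EIF5A2, a second eIF5A gene with a narrow tissue range, was at 9.75 in U2932, 8.69 in SUDHL-4 and 8.54 in TMD8 but at 3.77 in WSU-DLCL2. EIF2AK3, which encodes the endoplasmic reticulum stress kinase PERK, ran from 11.59 in TMD8 to 13.12 in SUDHL-4. In contrast EIF5A spanned only 0.14 between lines and EIF3J, a loosely bound eIF3 subunit, 0.21. Each line is 1 culture here, so no test between lines was made.

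**Figure D1:**
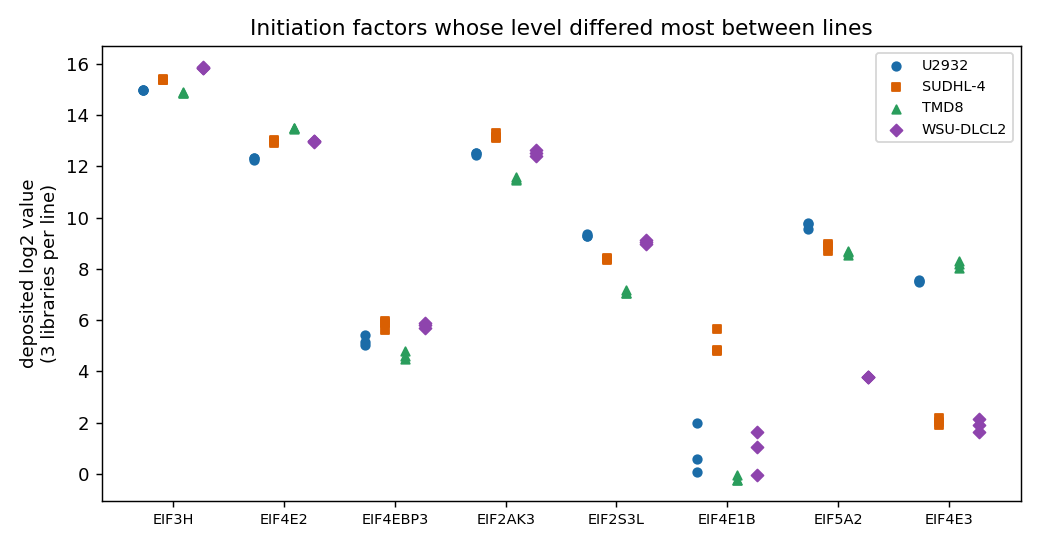
Deposited log2 values of the 8 initiation factor genes whose DMSO level differed by more than 1 between lines; each point is 1 library, with 3 treatments per line and colour and shape giving the line. EIF4E3 lies near 8 in U2932 and TMD8 and near 2 in SUDHL-4 and WSU-DLCL2, and EIF5A2 is at 3.77 in WSU-DLCL2 with DMSO, while the 3 treatments of a line mostly lie together.

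With avadomide a broad share of the initiation factors fell by a small amount. Of the 55 genes, 17 fell and 1 rose at a limma adjusted p under 0.05, and 37 did not pass. The 17 are 30.9% of the genes, where 11.2% of all tested genes fell and 13.6% rose. That comparison includes many genes with low values. Among the 15191 genes that reached a log2 value of 5 in 4 or more libraries, 17.4% fell, as did 18 of the 53 initiation factors among them. The median change was -0.07 on the log2 scale, against 0.011 for all tested genes. The falls ran from -0.13 for EIF6 to -0.32 for EIF4A3. Values were lower than DMSO in all 4 lines for 24 of the 55 genes (43.6%), compared with 16.8% of all tested genes, and higher in all 4 for 2 (3.64%), compared with 19.7%. These shares of all tested genes again include many genes with low values, and none was counted among genes with higher values. Under lenalidomide no gene of the 55 passed the limma test, 6 had an unadjusted p under 0.05, and the median change was -0.01. Of all tested genes 0.226% rose and 0.00888% fell with that compound. Lenalidomide values were below DMSO in all 4 lines for 13 of the 55 genes (23.6%, compared with 13.4% of all tested genes) and above it in all 4 for 5 (9.09%, compared with 14.6%).

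The calls rest on small changes, and their number depended on the lines and on the scaling. Without U2932 8 genes fell and without WSU-DLCL2 9, compared with 18 without SUDHL-4 and 13 without TMD8. Calls were fewer over the whole table too. Of all tested genes 6.69%, 4.84%, 8.74% and 8.17% fell in these 4 fits, in the same order, compared with 11.2% with all lines. The 7 genes EIF1AD, EIF3C, EIF3G, EIF3I, EIF4A3, EIF4G1 and EIF5A passed in all 4 of these fits. A fit to only the 8 libraries of DMSO and avadomide, which leaves fewer libraries to estimate the spread, called 3 of the 17, EIF3G, EIF4A3 and EIF5A, and a fit that ignored the cell line called 0, with 2 at an unadjusted limma p under 0.05. Of all tested genes 2.12% fell in the fit to 8 libraries and 0.0% in the one that ignored the line. Centring each library on its median shifted the median of all genes from 0.0106 to -0.0991, and 29 of the 55 genes were then lower, with a median of -0.18, as were 21.4% of all tested genes. The values are relative within a library, so that fewer molecules of an mRNA per cell and more of all others cannot be told apart.

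**Figure D2:**
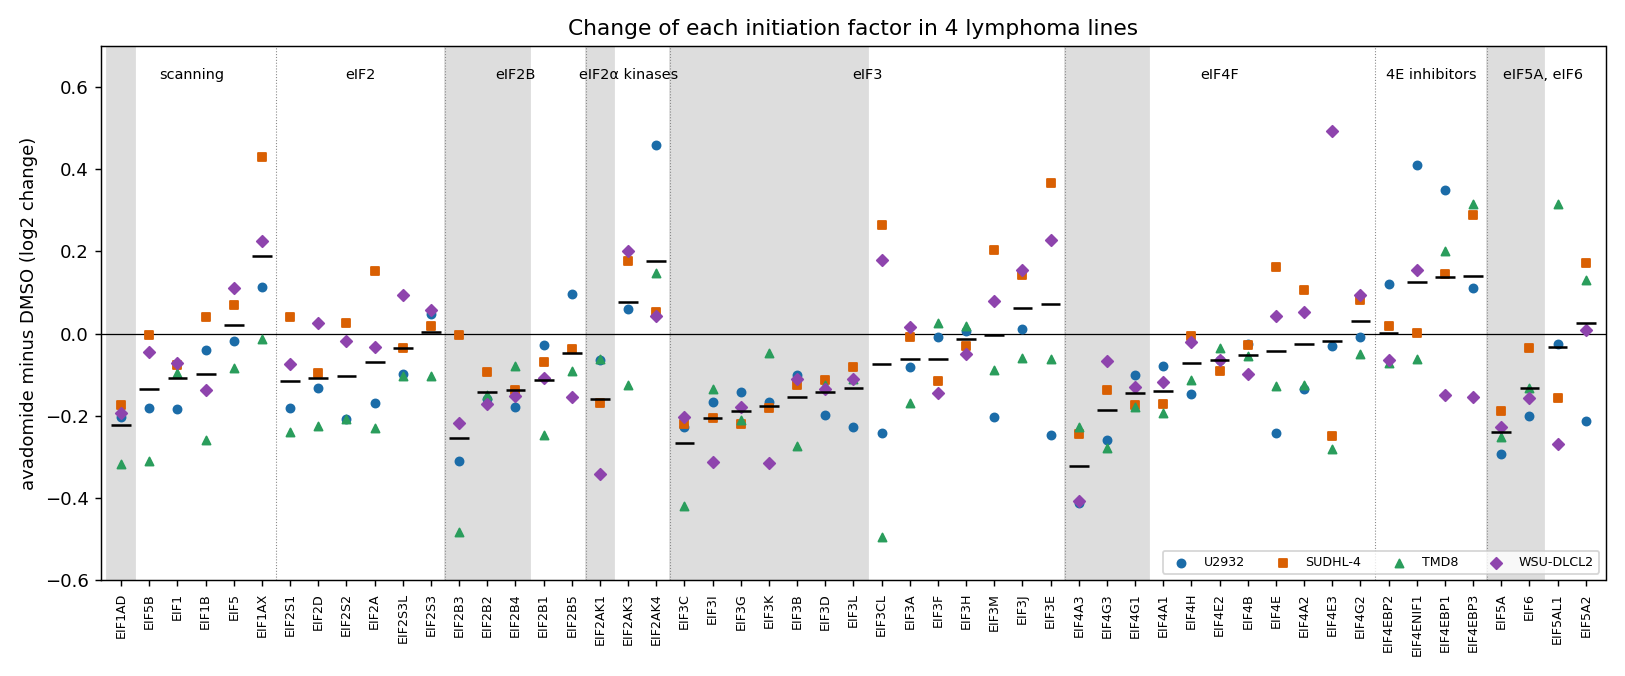
Change in deposited log2 value from DMSO to avadomide for each initiation factor gene, ordered by role; symbols are the 4 lines, bars their mean, and grey columns mark the 17 genes that fell (limma adjusted p under 0.05). EIF4E1B, whose changes reach 1.92, and EIF1AY are left out of the plot. The grey columns hold points below 0 in all 4 lines, and the steepest mean is that of EIF4A3 at -0.32.

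The cap-binding complex and its relatives comprised 12 genes, of which 3 fell (25.0%, compared with 11.2% of all tested genes) and 1 rose (8.33%, compared with 13.6%). EIF4A3, a helicase of the eIF4A family that serves in the exon junction complex rather than in canonical initiation, fell the most of the 17. The gene lies on chromosome 17 from 80135214 to 80147183 (GRCh38). Its log2 values in U2932, SUDHL-4, TMD8 and WSU-DLCL2 were 14.04, 14.05, 14.14 and 13.88 with DMSO and 13.63, 13.81, 13.91 and 13.48 with avadomide. Every line was lower with avadomide, and the 4 treated values overlapped the 4 controls only through TMD8. The change was -0.32 ± 0.04 (SE of the fit, 4 lines; limma adjusted p = 0.00105). With lenalidomide the values were 13.84, 14.03, 14.03 and 13.74, between those of the other treatments in each line, a change of -0.12 ± 0.04 that did not pass (limma adjusted p = 0.267).

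Of the scaffolds, EIF4G1 was among the most abundant genes. Its values with DMSO were 16.25, 16.16, 16.09 and 15.82 in the same order of lines, and with avadomide 16.15, 15.98, 15.91 and 15.69. The fall, -0.14 ± 0.03 (limma adjusted p = 0.00576), was present in 4 of 4 lines although the ranges of the groups overlapped. EIF4G3, the second eIF4G, fell by 0.18 ± 0.05 (limma adjusted p = 0.0258). EIF4E itself did not pass. Its values were 12.32, 12.55, 12.78 and 12.79 with DMSO and 12.08, 12.71, 12.65 and 12.83 with avadomide, lower in 2 lines and higher in the other 2, for a change of -0.04 with a 95% interval from -0.18 to 0.09 (limma adjusted p = 0.666). The eIF4A paralogs did not pass either. EIF4A1 was lower in 4 of 4 lines, at -0.14 ± 0.06 (limma adjusted p = 0.13), and EIF4A2 stood at -0.03 ± 0.04 (limma adjusted p = 0.714). EIF4A1 was called lower after quantile normalization or median centring, and EIF4A2 once a trend over GC and length was removed.

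EIF4E1B, an eIF4E relative known from oocytes, was the gene that rose. It stood at 0.06, 4.78, -0.25 and -0.03 with DMSO, at 0.59, 4.83, -0.03 and 1.05 with lenalidomide and at 1.98, 5.65, -0.23 and 1.62 with avadomide. Only SUDHL-4 held a clear level, and TMD8 was near 0 under every treatment. The change under avadomide was 1.11 ± 0.30 (limma adjusted p = 0.025). As the gene met the filter only with the help of the avadomide libraries in which it was high, the call has no weight of its own, and no call was made without U2932, SUDHL-4 or WSU-DLCL2 or without the filter on low values.

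The genes that restrain eIF4E did not pass under either compound. Of the 4 genes, EIF4EBP1, EIF4EBP2, EIF4EBP3 and EIF4ENIF1, which encodes the eIF4E transporter, 0 had an unadjusted limma p under 0.05 with avadomide and 1 with lenalidomide. EIF4EBP1 was at 11.97, 12.41, 11.82 and 12.49 with DMSO, at 12.40, 12.63, 11.93 and 12.53 with lenalidomide and at 12.32, 12.56, 12.02 and 12.34 with avadomide. It was higher in 4 of 4 lines with lenalidomide (0.20 ± 0.07; limma adjusted p = 0.293) and in 3 of 4 with avadomide (0.14 ± 0.07; limma adjusted p = 0.201), WSU-DLCL2 being the exception. EIF4EBP2 was close to 0 with both, at -0.00 for lenalidomide and 0.00 for avadomide with an SE of 0.04. EIF4EBP3 shares 73.37% of its exon bases with the readthrough gene ANKHD1-EIF4EBP3, and its change of 0.14 ± 0.12 under avadomide is uncertain for that reason.

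eIF3 had the most genes that fell, 7 of 14, where 11.2% of all tested genes fell, and none of the 14 rose under avadomide. Its a, b, g and i subunits form a module that is conserved in budding yeast. In that module EIF3I fell by 0.20 ± 0.04 (limma adjusted p = 0.00342), EIF3G by 0.19 ± 0.03 (limma adjusted p = 0.00273) and EIF3B by 0.15 ± 0.04 (limma adjusted p = 0.0127), while EIF3A, its largest subunit, was at -0.06 ± 0.04 (limma adjusted p = 0.264). EIF3I lies on chromosome 1 from 32221928 to 32231604 and EIF3G on chromosome 19 from 10115017 to 10119918. EIF3I stood at 14.17, 14.73, 14.02 and 14.85 with DMSO, at 14.18, 14.74, 14.01 and 14.72 with lenalidomide and at 14.00, 14.53, 13.89 and 14.54 with avadomide. The lenalidomide values of EIF3I lay within 0.01 of DMSO in 3 lines and 0.13 below it in WSU-DLCL2. EIF3G was at 13.46, 14.31, 13.80 and 13.82 with DMSO and at 13.31, 14.09, 13.59 and 13.64 with avadomide, lower by 0.14 to 0.22 in each line, with overlapping ranges.

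The other eIF3 subunits divided. EIF3K fell by 0.18 ± 0.04 (limma adjusted p = 0.0156). EIF3D, a subunit that can itself bind caps, and EIF3L, the partner of the k subunit, fell by 0.14 and 0.13, with limma adjusted p of 0.0102 and 0.0173. EIF3B, EIF3D and EIF3L are named here although the naming rule did not take them, and were chosen after their values were seen. EIF3C fell by 0.27 ± 0.06 (limma adjusted p = 0.0103), most in TMD8 at -0.42, but it has a near-identical copy, EIF3CL, between which reads could have been split, and EIF3CL did not pass at -0.07. EIF3E, EIF3F, EIF3H, EIF3J and EIF3M did not pass, with changes from -0.06 to 0.07. EIF3E and EIF3M were not alike in all lines, with EIF3E at -0.25 in U2932 and 0.37 in SUDHL-4 and EIF3M at -0.20 and 0.20. EIF3L shares 41.13% of its exon bases with another annotated gene.

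Of the 5 genes of the exchange factor eIF2B, 3 fell, EIF2B3, EIF2B2 and EIF2B4, where 11.2% of all tested genes fell. All 5 changes were negative. None of these 3 calls was kept without U2932, without WSU-DLCL2 or with only the 8 libraries of DMSO and avadomide. Calls over the whole table were fewer in those fits too. EIF2B3, the gamma subunit, went from 11.97, 12.47, 12.66 and 12.48 with DMSO to 11.66, 12.47, 12.18 and 12.26 with avadomide, a fall of 0.25 ± 0.07 (limma adjusted p = 0.0221). SUDHL-4 was nearly level at -0.00 and TMD8 fell the furthest, to -0.48. EIF2B2 and EIF2B4, the beta and delta subunits, fell more evenly, by 0.14 ± 0.03 each (limma adjusted p = 0.0122 and 0.0139). EIF2B1, the alpha subunit, and EIF2B5, the catalytic epsilon subunit, did not pass at -0.11 and -0.05.

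None of the 6 genes of eIF2 and the alternative carriers passed the limma test with avadomide, and 2 had an unadjusted p under 0.05. EIF2S1, the alpha subunit that the stress kinases phosphorylate, was at -0.11 ± 0.05 (limma adjusted p = 0.101). These results depended on the processing. EIF2S1 was called lower after quantile normalization, median centring or removal of the GC and length trend, and without SUDHL-4. EIF2D was called with median centring and EIF2A with that trend removed. Among the 3 kinase genes of the 55, 1 fell (33.3%, compared with 11.2% of all tested genes). That gene, EIF2AK1, the heme-regulated HRI, fell by 0.16 ± 0.05 (limma adjusted p = 0.0347), by 0.34 in WSU-DLCL2 and by 0.06 in TMD8. EIF2AK4, the amino acid sensor GCN2, was higher in 4 of 4 lines, most in U2932 at 0.46 and by 0.04 to 0.15 elsewhere, and did not pass at 0.18 ± 0.06 (limma adjusted p = 0.0654). EIF2AK3 stood at 0.08 ± 0.05 (limma adjusted p = 0.312). The fourth kinase gene, EIF2AK2, encodes the interferon-induced, RNA-sensing kinase PKR and was kept out of the 55. It was at 12.52, 12.40, 13.19 and 12.75 with DMSO, at 13.08, 12.51, 13.49 and 13.02 with lenalidomide and at 13.92, 12.86, 14.45 and 14.17 with avadomide, a rise of 1.14 ± 0.14 under avadomide (limma adjusted p = 0.000956) in which SUDHL-4 took the smallest share at 0.46.

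Of the 7 genes for scanning and start codon choice, EIF1AD alone passed. That is 14.3% of the 7, near the 11.2% of all tested genes that fell, and is not a result about the group. EIF1AD lies on chromosome 11 from 65996545 to 66002176, encodes a nuclear protein with an eIF1A-like domain and went from 11.72, 11.55, 12.02 and 11.60 with DMSO to 11.52, 11.38, 11.71 and 11.40 with avadomide, a fall of 0.22 ± 0.04 (limma adjusted p = 0.00282). EIF1AX, which encodes the scanning factor eIF1A and was chosen after its values were seen, lay on the other side, at 0.19 ± 0.06 with avadomide (limma adjusted p = 0.0553) and 0.23 ± 0.06 with lenalidomide (limma adjusted p = 0.163). Its lenalidomide values were higher than DMSO in 4 of 4 lines, by 0.03 in TMD8 and by 0.26 to 0.37 in the others.

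Of the 4 genes in the group of eIF5A and eIF6, 2 fell, EIF5A and EIF6, where 11.2% of all tested genes fell. EIF5A, on chromosome 17 from 7306999 to 7312463, was even across lines, at 15.78, 15.92, 15.88 and 15.87 with DMSO, at 15.74, 15.97, 15.82 and 15.77 with lenalidomide and at 15.49, 15.73, 15.63 and 15.64 with avadomide. All 4 avadomide values lay below all 4 DMSO values. The fall was 0.24 ± 0.03 (limma adjusted p = 0.00126), or 15.3%. EIF6, which keeps large ribosomal subunits apart from small ones until they mature, fell by 0.13 ± 0.04 (limma adjusted p = 0.0445), with SUDHL-4 the least at -0.03. EIF5A passed in all 12 alternatives that kept the cell line as the replicate block. The call of EIF6 was lost without U2932, TMD8 or WSU-DLCL2 and with only the 8 libraries of DMSO and avadomide. It was also lost without the filter on low values, without the trend in the variance prior and with the GC and length trend removed. EIF5A2 and EIF5AL1, the second a near copy of EIF5A, did not pass at 0.02 and -0.03.

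Avadomide and lenalidomide share the same DMSO libraries, and their values are therefore also given against each other. In that comparison of libraries, 5 of the 55 genes were lower with avadomide and 0 higher (limma adjusted p under 0.05), or 9.09% against 2.22% of all tested genes that were lower and 2.51% that were higher. EIF4A3 differed by -0.20 ± 0.04 (limma adjusted p = 0.03), EIF5A by -0.20 ± 0.03 (limma adjusted p = 0.0177), EIF3I by -0.17 ± 0.04 (limma adjusted p = 0.0311), EIF1AD by -0.17 ± 0.04 (limma adjusted p = 0.0379) and EIF3G by -0.14 ± 0.03 (limma adjusted p = 0.0405). Leaving out a line left 1 of these calls without SUDHL-4, that of EIF5A, and 0 without any other line. EIF4G1 did not pass at -0.06, with a 95% interval from -0.12 to 0.01, and EIF3C did not pass at -0.09, with one from -0.22 to 0.05.

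**Figure D3:**
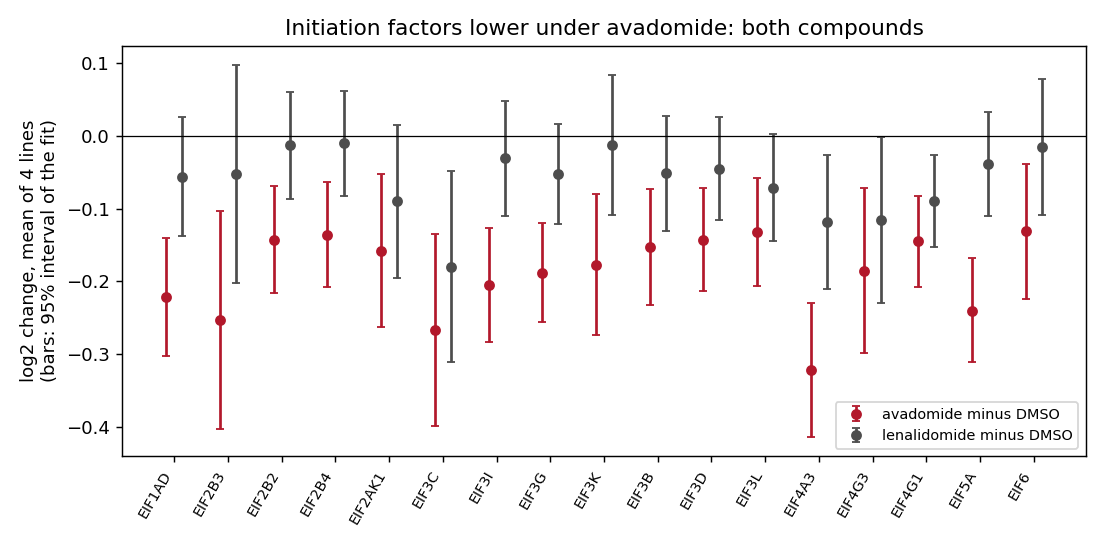
Mean change in log2 value over 4 lines for the 17 initiation factor genes that fell under avadomide (red), with the change of the same genes under lenalidomide (grey); bars are 95% intervals of the limma fit, and both compounds are measured against the same DMSO libraries. The genes were chosen by the red values, which run from -0.32 to -0.13, and the grey means from -0.18 to -0.01 do not pass.

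The lines took part unevenly. With avadomide, 47 of the 55 genes were below DMSO in TMD8, with a median change of -0.12, and 42 in U2932, with a median of -0.10. In WSU-DLCL2 35 genes were lower (median -0.07) and in SUDHL-4 32 (median -0.03). Across all tested genes the share below DMSO was between 46.5% and 50.4% in each line. With lenalidomide 43 of the 55 (78.2%) were lower in TMD8 and 38 (69.1%) in WSU-DLCL2, but 27 (49.1%) in U2932 and 20 (36.4%) in SUDHL-4. Of all tested genes between 48.1% and 50.7% were lower with lenalidomide in each line. Made linear and summed, the 55 genes took 1.22% of a library's total in U2932 with DMSO and 1.16% with avadomide. The same share went from 1.42% to 1.38% in SUDHL-4, from 1.26% to 1.16% in TMD8 and from 1.35% to 1.31% in WSU-DLCL2.

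Base composition moved with the change in part of the lines. The 17 genes that fell had a median transcript GC content of 51.0%, the 37 that did not pass one of 42.9% and all tested genes with a symbol one of 48.4%. Across the 55 genes, which are not independent replicates and share the libraries, the change under avadomide ranked against GC with a Spearman rho of -0.524 in WSU-DLCL2 and -0.389 in SUDHL-4 but of -0.0353 in U2932 and -0.0153 in TMD8. Over all genes with a GC value rho was -0.218 and -0.417 in the first of these lines, in the same order, and -0.0631 and -0.0622 in the latter. With the trend over GC and length removed from each line, 23 of the 55 genes fell and 2 rose, compared with 18 and 1 without the removal in the same 17280 genes. Of all these genes 14.5% fell and 13.3% rose after it. Of the original 17, 15 were still called, EIF6 and EIF3B being lost. EIF4E then fell too, as did EIF4A2, EIF2S1, EIF2A, EIF3A, EIF3F, EIF5B and EIF2B1. EIF2B1 was called already without the removal in the same genes.

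**Figure D4:**
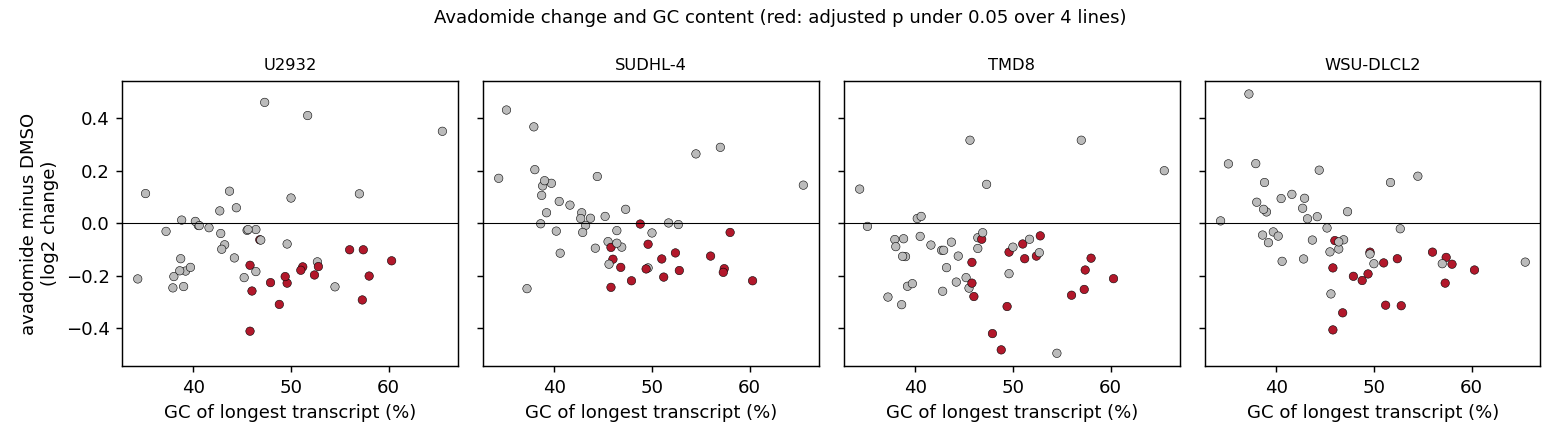
Change in log2 value from DMSO to avadomide against GC content of the longest GENCODE 29 transcript, 1 panel per line and 1 point per initiation factor gene; red points are the 17 genes that fell over the 4 lines, and EIF4E1B and EIF1AY are left out. Spearman rho over all 55 genes, including those left out of the plot, was -0.389 in SUDHL-4, -0.524 in WSU-DLCL2, -0.0353 in U2932 and -0.0153 in TMD8.

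Neighbouring steps of translation were followed in 48 other genes, of which 47 were tested. With avadomide 14 fell (29.8%, compared with 11.2% of all tested genes) and 4 rose (8.51%, compared with 13.6%), and with lenalidomide none passed the limma test. In the list on eIF2 alpha phosphorylation and its response, 4 of 9 genes fell (44.4%) and EIF2AK2 rose (11.1%). ASNS, asparagine synthetase and a target of the stress factor ATF4, was at 13.83, 13.96, 13.28 and 13.83 with DMSO and 13.20, 13.80, 12.62 and 13.41 with avadomide, a fall of 0.47 ± 0.08 (limma adjusted p = 0.00296). CHAC1, a glutathione-degrading enzyme of the same response, fell by 0.42 ± 0.10 (limma adjusted p = 0.0139). ATF4 itself fell by 0.19 and TRIB3, another of its targets, by 0.30. ATF4 and TRIB3 are named after their values were seen.

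Among 19 regulators and partners of initiation 6 fell (31.6%, compared with 11.2% of all tested genes) and 2 rose (10.5%, compared with 13.6%). PDCD4, an inhibitor of eIF4A, was at 13.37, 13.97, 13.88 and 12.65 with DMSO and at 14.01, 14.21, 14.52 and 12.92 with avadomide, a rise of 0.45 ± 0.08 (limma adjusted p = 0.00325) present in 4 of 4 lines. RPS6KB1, the S6 kinase, rose by 0.12 ± 0.03 (limma adjusted p = 0.0333), and its change was -0.01 once the trend over GC and length was removed. PABPC4, a poly(A)-binding protein, fell by 0.16 ± 0.04 (limma adjusted p = 0.0158) and BZW2, a mimic of eIF5, by 0.16 ± 0.05 (limma adjusted p = 0.0404). MTOR, RPTOR, LARP1 and DAP fell by 0.10 to 0.15 and were named after their values were seen.

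Of 8 genes for termination and recycling 2 fell and 1 rose, where 11.2% of all tested genes fell and 13.6% rose. The single rise is near the share of all tested genes. It was that of DENR, which joins in releasing the last tRNA and in reinitiation, by 0.17 ± 0.03 (limma adjusted p = 0.0039). GSPT1, the release factor eRF3a, fell by 0.15 ± 0.05 (limma adjusted p = 0.0406) and PELO, a ribosome rescue factor, by 0.14 ± 0.04 (limma adjusted p = 0.0484). Of 7 elongation factor genes tested, EEF1D alone passed and fell by 0.18 ± 0.04 (limma adjusted p = 0.00746). That is 14.3% of the 7, near the 11.2% of all tested genes that fell. DHPS, the enzyme that starts the hypusine modification of eIF5A, fell by 0.16 ± 0.04 (limma adjusted p = 0.0106). It was 1 of 2 genes in its list.

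Each of the other 4 motifs was in fewer of the initiation factors. The interferon-stimulated response element, searched on both strands, was in 3 of the 46 matched genes, EIF3K, EIF3C and EIF6, or 6.52% compared with 3.07% of all promoters and 2.61% of those of tested genes. All 3 were among the 14 matched genes that fell. An ETS site, ACTTCCGG, was in 5 (10.9%, compared with 3.64% of all promoters and 6.64% of those of tested genes), and the Ikaros core, TGGGAA, in 8 (17.4%, compared with 21.1% and 19.3%). The ATF4 element TGATGNAA was in 0, compared with 3.19% and 1.67%. CACGTG was in 4 of the 14 matched genes that fell, and in 7 of the 32 others.

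B cell identity of the lines was visible in the 5 B cell markers, whose summed log2 level lay between 17.7 and 18.1 in every library, and 1 of which fell with avadomide. Of the 6 T and NK cell markers CD3D alone was under a log2 value of 1 in every library, and CD3G was under it with DMSO and with lenalidomide. The rest of that list was not, so the list as a whole was not absent. Summed myeloid markers ran from 3.94 to 6.71 with DMSO and from 4.61 to 7.58 with avadomide, where 3 of 6 rose, and T and NK cell markers from 7.86 to 13.04 and from 9.12 to 12.82, where 1 of 4 tested rose. Summed stromal, endothelial and epithelial markers ran from 8.94 to 11.86 and from 10.41 to 11.80, with 2 up and 1 down. Of all tested genes 13.6% rose and 11.2% fell with avadomide. The part of these markers in the results was not tested.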

How the data were processed

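The values are log2 values by gene and library, in a table as the authors deposited it. Per the submitters' processing notes, STAR, Salmon and hg38 were used, with no versions named (MACS, also listed, does not apply to expression). How the log2 values were transformed and normalized is not given in the sources used here. Depth is unknown, and no read counts could be recovered. Of 58684 entries, 28 whose symbols had become calendar dates were left out.

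Values were fitted as deposited with limma 3.58.1 in R 4.3.3, with treatment and cell line as factors over 12 libraries and an intensity trend in the variance prior. P-values are two-sided and Benjamini-Hochberg adjusted over 22528 genes, at 0.05. The procedure was tested on simulated data. Same-line libraries come from the same cell line, and their deviations from treatment means correlated at 0.918 to 0.977, against -0.589 to 0.199 for other lines. An exact sign-flip test over 4 lines cannot go below 0.125, so none is given.

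Members, lists and markers were chosen with earlier results of these data known. Named were 13 genes of standing interest and, in each role group, the 4 largest changes past the threshold. Of the context genes these were EIF2AK2, GSPT1 and the 2 largest changes in each direction and list. A planned correction for GC and length could not cover enough genes, at 78.1%, so it was made over the 17280 genes with a symbol and a value, after the data were seen. Gene models are GENCODE 29 (GRCh38), the build of the files.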

Additional observations from a re-analysis of the deposited data

Results flagged for a closer look

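In 9 of 123 groups of 4 lines examined, 1 line lay far from the other 3, and chance flags about 1 in 20 groups. TMD8 stood apart in the change of EIF3C under avadomide, at -0.42 against -0.23 to -0.20 elsewhere, and in that of EIF3B, at -0.27 against -0.12 to -0.10. WSU-DLCL2 did so for EIF3I under lenalidomide, at -0.13 against -0.01 to 0.01. SUDHL-4 had the smallest rise of EIF2AK2 under avadomide, at 0.46 against 1.26 to 1.42. In DMSO levels, SUDHL-4 held EIF4E1B at 4.78 against -0.25 to 0.06 and PELO at 10.16 against 11.19 to 11.26. U2932 was the low line for EIF3D, at 14.75 against 15.15 to 15.22, and for EIF3L, at 14.34 against 14.86 to 14.93. RPS6KB1 was highest in TMD8, at 12.53 against 12.26 to 12.30. With 1 library behind each value, a line and a single library cannot be told apart.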

How the results depend on the processing

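Of the 17 initiation factors that fell under avadomide, 3 (EIF3G, EIF4A3 and EIF5A) passed in all 12 alternatives that kept the cell line as the replicate block. With no replicate block, no gene of the 55 passed the limma test in any comparison (2 had an unadjusted p under 0.05 for avadomide, 0 for lenalidomide and 1 between the compounds), nor did any of the 22528 tested, and the context genes gave 0 in each direction. The initiation factors counted as lower were 29 with median centring, 10 without the trend in the variance prior and 3 with only the 8 libraries compared, and 8 to 18 when a line was left out. Of all tested genes 21.4%, 8.14%, 2.12% and 4.84% to 8.74% were lower, in the same order. Initiation factors counted as higher were 0 without the filter on low values, 0 with only the 8 libraries and 2 with the GC and length trend removed, and 0 to 2 when a line was left out. Of all tested genes 5.3%, 3.99%, 13.3% and 6.99% to 11.9% were higher, in that order. Between the compounds, 10 initiation factors were lower with median centring, 0 without the filter, 8 with the filter at 5, 0 without the trend, 3 with the 8 libraries, and 0 to 1 when a line was left out. Of all genes in each fit 6.02%, 0.282%, 4.69%, 0.0133%, 1.21% and 0.0% to 0.564% were lower, in the same order. Of the context genes under avadomide, 7 were lower without the trend, 3 with the 8 libraries and 4 to 9 when a line was left out. With median centring 2 were higher and with the 8 libraries 2, where 8.35% and 3.99% of all tested genes were. With only the 8 libraries of lenalidomide and DMSO 2 were higher (EIF2AK2 and PDCD4), as were 2.27% of all tested genes. Between the compounds, the context genes lower with avadomide numbered 4 with quantile normalization, 7 with median centring, 1 without the filter, 4 with the filter at 5, 0 without the trend and 0 to 2 when a line was left out. Of all genes in each fit 3.09%, 6.02%, 0.282%, 4.69%, 0.0133% and 0.0% to 0.564% were lower, in that order. Those higher numbered 0 without the filter or the trend and 0 to 1 when a line was left out. Of all genes 0.248%, 0.0311% and 0.0% to 1.69% were higher. RPS6KB1 under avadomide changed sign, to -0.007, with the GC and length trend removed. For the other moves the cause was not tested. Under lenalidomide none of the 55 passed the limma test in any alternative, and 0 to 7 had an unadjusted p under 0.05. Reads per gene are unknown, so no limit from depth can be given.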

Other observations

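EIF1AXP1, annotated as a pseudogene of EIF1AX, moved in the same lines as that gene. Its change with avadomide was 0.10 in TMD8 and 0.49, 0.56 and 0.52 in U2932, SUDHL-4 and WSU-DLCL2. With lenalidomide it was 0.01 in TMD8 and 0.57, 0.43 and 0.64 in those lines. EIF1AX itself changed with lenalidomide by 0.03 in TMD8 and by 0.26, 0.37 and 0.26 in the others. With avadomide EIF1AX changed by -0.01 in TMD8 and by 0.11, 0.43 and 0.23 in the others. Reads of such copies could have been split between them, so these values are not independent.

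The readthrough gene SENP3-EIF4A1 was at 5.31 to 6.56 with DMSO, below EIF4A1 at 9.66 to 10.14 in the same libraries. EEF1G, an elongation factor subunit that cells use throughout, was listed at 0 in all 12 libraries, and its level is not interpreted.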
